A study of Mus musculus with 4 samples.

Results

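The genes described here encode the nuclear subunits of the mitochondrial respiratory chain and of ATP synthase, together with the complex I assembly factors that share their names. They were chosen by symbol (Nduf, Sdha to Sdhd, Uqcr, Cox4 to Cox8 followed by a, b or c, and Atp5) and by signal, a gene being kept when each of the 4 arrays read a probe of it well above background. This gave 86 genes, measured by 107 probes, among the 24067 genes tested. Of the 90 matching genes with a named probe, 4 were not well above background on any array (Cox7b2, Cox8b, Cox8c and Ndufa4l2), and no member passed the filter through 1 group alone. The protein-coding genes Cox5b, Ndufb1, Ndufb4b and Ndufb4c, and the subunits encoded by mitochondrial DNA, were not analysed here.

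The RNA came from Kupffer cells, macrophages that live in the liver sinusoids, taken from male C57BL/6 mice aged 8 weeks by collagenase perfusion and a Percoll gradient. The treated cultures received 200 nM maresin 1 (MaR1), a mediator derived from docosahexaenoic acid, and the control cultures received its ethanol vehicle (Veh). Both were kept for 24 h in RPMI with 0.1% serum, and each group was measured on 2 one-colour Agilent arrays. Nothing in the labels tells if the replicates are separate cultures or mice, so the p-values cover the spread between these arrays only, and that spread may be technical. The 4 arrays lay on 1 slide, with each group at its own pair of positions, so position and treatment cannot be told apart.

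The respiratory chain passes electrons through complexes I to IV of the inner mitochondrial membrane and pumps protons as it does so. ATP synthase, also called complex V, uses the returning protons to make ATP. Complex II, succinate dehydrogenase, is also an enzyme of the tricarboxylic acid cycle and pumps no protons. In macrophages the balance between oxidative phosphorylation and glycolysis is known to differ between states of activation, alternatively activated cells relying more on oxidation.

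Respiratory chain and ATP synthase transcripts differed little between MaR1 and Veh cultures. By limma's moderated test with Benjamini-Hochberg adjustment over all genes, 0 of the 86 genes were higher with MaR1, where 11.2% of all genes tested were, and 1 was lower (Sdhb), where 12.7% of all genes were. Calls in either direction made up 24% of all genes tested. At an unadjusted p under 0.05 there were 7 higher and 3 lower members, 11.6% of the 86, beside 40.7% of all genes. The number of members called depended on the variance model. With a variance trend in limma 15 members were higher and 3 lower, while 38.2% of all genes were called in either direction. The differences, MaR1 minus Veh on the log2 scale, ran from -0.26 to 0.24 with a median of 0.06, while the median over all genes tested was -0.02. The median absolute difference was 0.0804 for the members and 0.179 for all genes, and its 95th percentile was 0.218 for the members and 0.858 for all genes.

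The intervals show how large a difference the spread between arrays allows under the scaling used here. They do not cover the choice of scaling. For Sdhb the 95% interval ran from -0.407 to -0.116, and the difference after quantile normalization was -0.413, outside that interval. The 95% interval of the log2 difference lay within 0.5 of zero, a 1.41-fold change, for 85 of the 86 genes, the exception being Cox6b2, and for 14984 of the 24067 genes tested. It lay within 1 of zero for all 86 genes. In RNA from a whole culture, fewer cells of a type and less RNA per cell cannot be told apart. The plot of each gene's difference with its interval places the complexes side by side, and the cumulative plot sets the spread of the members beside that of all genes.

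**Figure D1:**
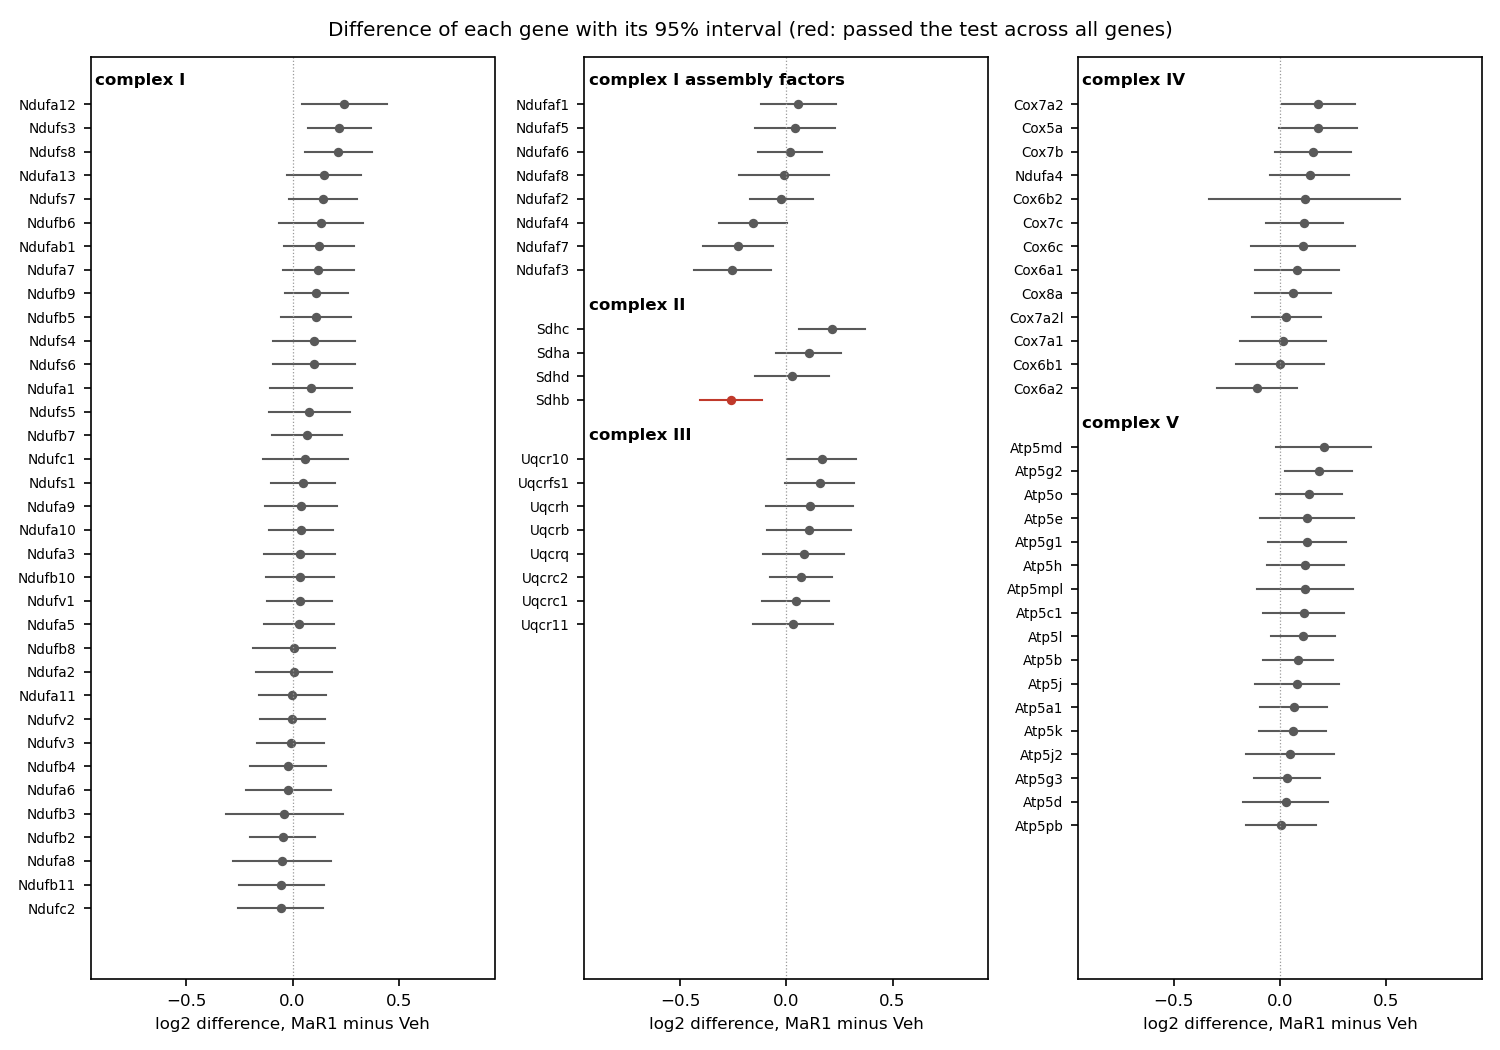
Log2 difference, MaR1 minus Veh, of 85 of the 86 genes, each with its 95% interval from limma (n = 2 arrays in each group), by complex, with the gene that passed the test (Sdhb) in red. All points lie between -0.26 and 0.24.

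**Figure D2:**
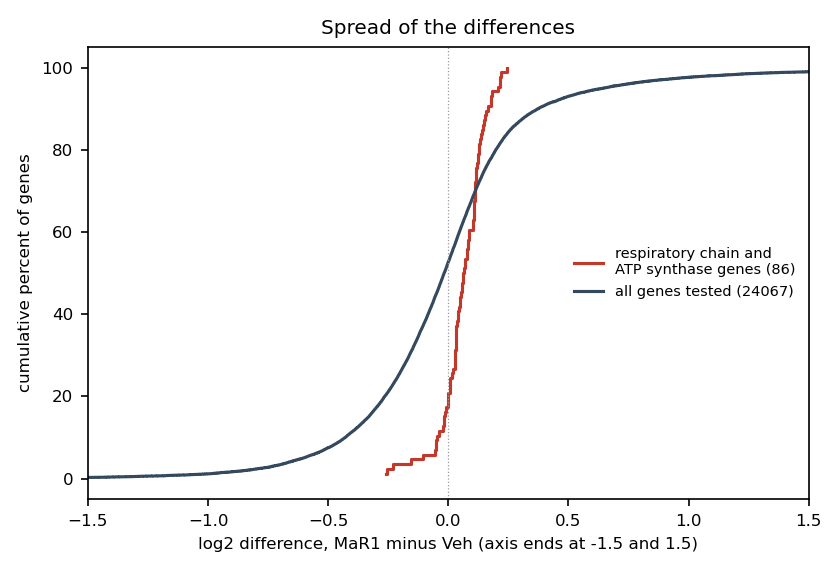
Cumulative percent of genes (y axis) by log2 difference, MaR1 minus Veh (x axis, drawn from -1.5 to 1.5), for the 86 respiratory chain and ATP synthase genes and for all 24067 genes tested. The curve of the 86 genes is the steeper one, with an absolute difference of 0.218 at its 95th percentile and 0.858 for all genes. The 86 genes passed a stricter filter on background than the genes in general.

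The values on the 4 arrays differed between replicates as well as between groups. As the median deviation from each gene's mean over the 4 arrays, the members lay at 0.0041 and 0.056 on MaR1 arrays 1 and 2, and at -6.7e-05 and -0.066 on Veh arrays 1 and 2. MaR1 array 2 and Veh array 2 stood at the ends, and MaR1 array 1 lay next to Veh array 1. Within the MaR1 group 69 of 86 genes (80.2%) were higher on array 2 than on array 1, where 51.5% of all genes were, and within the Veh group 76 of 86 (88.4%) were higher on array 1 than on array 2, where 50.8% of all genes were. The SD of these medians between arrays of a group was 0.042, beside the median difference of 0.06 between the groups. Groups that did not overlap, with both MaR1 values above both Veh values, were found for 39 genes (45.3%), beside 32.7% of all genes. Both MaR1 values lay below both Veh values for 7 genes (8.14%), beside 36.8% of all genes, and the groups overlapped for 40.

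Of the 86 differences, 68 were above zero and 18 below. This balance depended on how the arrays were scaled: after quantile normalization 30 were above zero and 56 below, with a median of -0.036 for the members and -0.034 for all genes. In the authors' value table, whose columns have matching distributions, 35 were above zero and 51 below, with a median of -0.014. The sign of the median thus differed between scalings. Leaving out 1 array gave between 57 above and 29 below zero (without Veh array 2) and 78 above and 8 below (without Veh array 1), with medians of 0.0375 and 0.0972; without MaR1 array 1 the median was 0.0842 and without MaR1 array 2 it was 0.0377.

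**Figure D3:**
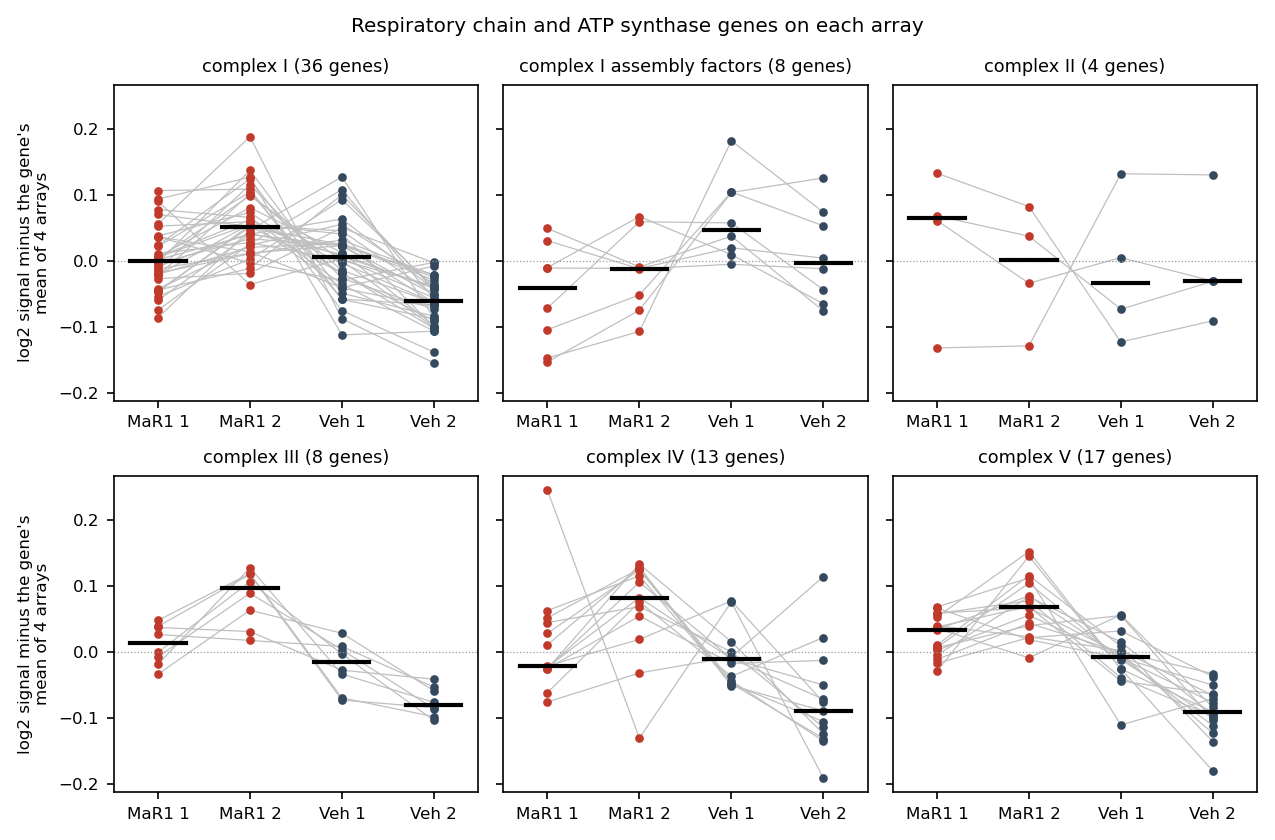
Log2 signal of each gene on each array minus that gene's mean over the 4 arrays (y axis), by complex, with MaR1 arrays in red, Veh arrays in dark blue, lines joining a gene's values and black bars at the medians. In complexes I, III, IV and V MaR1 array 2 has the highest median and Veh array 2 the lowest.

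**Figure D4:**
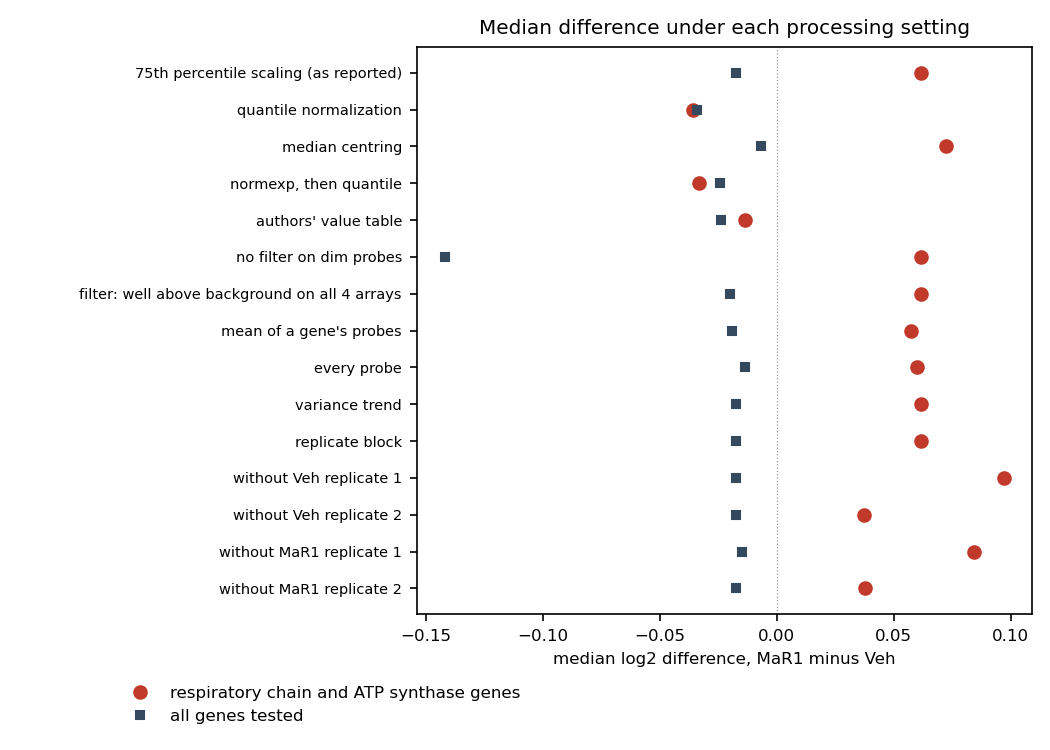
Median log2 difference, MaR1 minus Veh (x axis), of the 86 genes (red circles) and of all genes tested (dark blue squares) under each processing setting. The members' median is 0.06 as reported, -0.036 once quantile normalized and -0.014 in the authors' value table.

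Complex II held the only member that passed the test. The enzyme has 4 subunits: Sdha carries the flavin, Sdhb carries the iron-sulfur clusters, and Sdhc and Sdhd anchor both in the membrane and bind ubiquinone. Its genes did not move one way, with a median difference of 0.07 that was -0.0469 after quantile normalization. The promoter sequences of these subunits, from 250 bases before to 50 after the annotated start (RefSeq, GRCm38.p6), are shown as a description only. Capitals mark NRF1-type matches (GCGCANGCG) and an ERR-type match (TCAAGGTCA on the other strand), both strands having been searched, and no 2 of them overlap. Sdha lies at chr13:74350191-74350490 on the minus strand, Sdhb at chr4:140961021-140961320 on the plus strand, and Sdhd at chr9:50603800-50604099 on the minus strand.
Sdha: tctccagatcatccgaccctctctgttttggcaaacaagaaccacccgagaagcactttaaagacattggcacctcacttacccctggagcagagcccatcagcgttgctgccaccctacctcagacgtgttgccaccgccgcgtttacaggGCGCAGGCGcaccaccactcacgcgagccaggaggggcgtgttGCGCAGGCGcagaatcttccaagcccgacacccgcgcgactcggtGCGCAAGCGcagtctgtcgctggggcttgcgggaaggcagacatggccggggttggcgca
Sdhb: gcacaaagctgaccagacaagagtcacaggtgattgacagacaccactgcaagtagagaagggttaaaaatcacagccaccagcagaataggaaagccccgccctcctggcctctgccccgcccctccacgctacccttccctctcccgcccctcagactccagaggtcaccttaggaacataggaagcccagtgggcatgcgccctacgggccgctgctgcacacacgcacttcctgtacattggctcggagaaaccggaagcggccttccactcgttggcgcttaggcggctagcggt
Sdhd: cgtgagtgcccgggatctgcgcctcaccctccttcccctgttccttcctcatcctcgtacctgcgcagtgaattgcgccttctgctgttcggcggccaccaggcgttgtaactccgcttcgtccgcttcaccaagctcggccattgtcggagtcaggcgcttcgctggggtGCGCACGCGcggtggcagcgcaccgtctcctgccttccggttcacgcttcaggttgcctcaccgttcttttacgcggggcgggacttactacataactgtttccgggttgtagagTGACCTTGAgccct
The Sdha window held 3 NRF1-type matches, the Sdhd window held an NRF1-type and an ERR-type match, and the Sdhb window held 0 matches to the 4 motifs searched. Any link between these matches and the differences was not tested. Sdhc is named only.

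Sdhb fell with MaR1. Its level, as log2 of the signal relative to the array's 75th percentile, was 5.27 and 5.28 on the MaR1 arrays and 5.54 and 5.53 on the Veh arrays. The groups did not overlap, and the arrays of each group read nearly the same level. The difference was -0.26 ± 0.05 (SE from limma, n = 2 arrays in each group, as with every difference below; adjusted p = 0.0366 by limma), a 1.20-fold decrease. This value came from the brighter of its 2 probes. The other Sdhb probe read 3.77 and 3.83 on the MaR1 arrays and 3.86 and 3.88 on the Veh arrays, a difference of -0.07 ± 0.06 (adjusted p = 0.418 by limma over probes). With the mean of both probes the difference was -0.16 (adjusted p = 0.0944 by limma). Leaving out any 1 array also ended the call, with limma's adjusted p between 0.107 and 0.152 and the difference at -0.26 each time. The call also ended with no filter on dim probes (adjusted p = 0.0594 by limma) and with the replicate block (adjusted p = 0.0845 by limma). Quantile normalization, with or without normexp correction, and the authors' value table gave a larger decrease that passed the test. The difference was -0.41 after quantile normalization (adjusted p = 0.0162 by limma). It was -0.39 after normexp correction with quantile normalization (adjusted p = 0.000891 by limma) and -0.37 in the authors' value table (adjusted p = 0.0144 by limma). Centring each array on its median gave a slightly smaller decrease that also passed (-0.25, adjusted p = 0.0411 by limma).

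Sdhc had levels of 3.08 and 3.03 on the MaR1 arrays and 2.82 and 2.86 on the Veh arrays. Its groups did not overlap either, in the opposite direction to Sdhb, with a difference of 0.21 ± 0.06 that missed the threshold (adjusted p = 0.0640 by limma). Sdha read 4.43 and 4.40 on the MaR1 arrays and 4.29 and 4.33 on the Veh arrays, a difference of 0.10 ± 0.06 (adjusted p = 0.241 by limma), and its other probe differed by 0.13 ± 0.08. Sdhd read 4.84 and 4.75 on the MaR1 arrays and 4.79 and 4.75 on the Veh arrays, so that its groups overlapped (0.03 ± 0.06). The plot of the succinate dehydrogenase probes shows both Sdhb probes below their Veh mean on the MaR1 arrays, by unequal amounts.

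**Figure D5:**
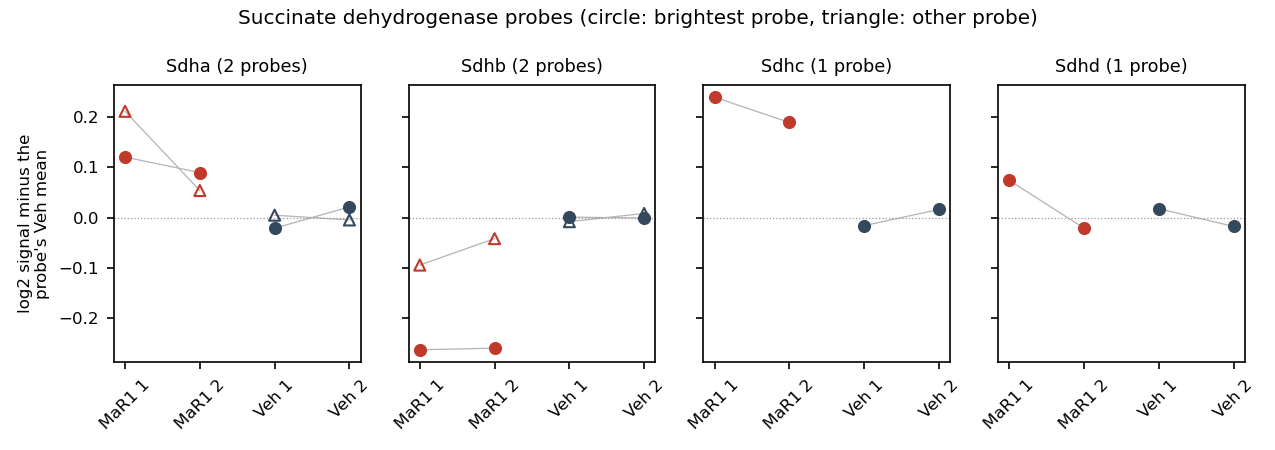
Log2 signal of each succinate dehydrogenase probe on each array minus that probe's Veh mean (y axis), with filled circles for the brightest probe of a gene, open triangles for its other probe, MaR1 arrays in red and Veh arrays in dark blue. The brightest Sdhb probe is 0.26 lower on the MaR1 arrays, the other Sdhb probe 0.07 lower, and Sdhc 0.21 higher.

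Complex I, NADH dehydrogenase, was represented by 36 subunit genes, of which 0 passed the test. Their median difference was 0.05, with 26 above zero and 10 below, and the median was -0.0414 after quantile normalization. The core subunits hold the flavin and the iron-sulfur clusters that carry electrons from NADH to ubiquinone. Ndufs1, the largest iron-sulfur subunit, read 3.07 and 3.04 on the MaR1 arrays and 2.99 and 3.02 on the Veh arrays, a difference of 0.05 ± 0.06. Ndufv1, which binds NADH, had overlapping groups, with 4.24 and 4.20 on the MaR1 arrays and 4.18 and 4.20 on the Veh arrays (0.03 ± 0.06). Ndufs7, which carries the iron-sulfur cluster next to the quinone site, read 4.80 and 4.79 on the MaR1 arrays and 4.69 and 4.62 on the Veh arrays, without overlap (0.14 ± 0.06, adjusted p = 0.153 by limma). Ndufv2, an iron-sulfur subunit beside Ndufv1, read 4.17 and 4.20 on the MaR1 arrays and 4.21 and 4.16 on the Veh arrays, with a 95% interval of the difference from -0.15 to 0.15.

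The complex I genes nearest the threshold were named after their values were seen. Ndufs3, a core subunit, read 4.73 and 4.77 on the MaR1 arrays and 4.53 and 4.53 on the Veh arrays, a difference of 0.22 ± 0.06 (adjusted p = 0.0555 by limma). Ndufs8, a core subunit with iron-sulfur clusters, read 4.25 and 4.26 on the MaR1 arrays and 4.07 and 4.01 on the Veh arrays (0.21 ± 0.06, adjusted p = 0.0649 by limma). Ndufa12, an accessory subunit, had the largest positive difference of the 86 genes, 0.24 ± 0.07, with 4.52 and 4.65 on the MaR1 arrays and 4.37 and 4.31 on the Veh arrays (adjusted p = 0.0833 by limma). The groups of these 3 genes did not overlap, as for 15 complex I genes (41.7%) in the higher direction, beside 32.7% of all genes, and 1 (2.78%) in the lower, beside 36.8%. Among the other accessory subunits, Ndufa13, also known as GRIM-19, read 5.99 and 6.10 on the MaR1 arrays and 5.91 and 5.88 on the Veh arrays (0.15 ± 0.06). Ndufs4, whose loss in mice gives a Leigh-like encephalopathy, read 3.84 and 3.93 on the MaR1 arrays and 3.83 and 3.73 on the Veh arrays, with a gap between the groups that was small beside the distance within each (0.10 ± 0.07). Ndufab1, the mitochondrial acyl carrier protein, read 0.58 and 0.66 on the MaR1 arrays and 0.50 and 0.49 on the Veh arrays (0.13 ± 0.06). At the other end Ndufc2 had the lowest difference of the subunits, -0.06 ± 0.07, with overlapping groups. The 2 probes of Ndufa3, an accessory subunit, differed in sign (0.03 ± 0.06 and -0.05 ± 0.06), and neither passed.

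The 8 complex I assembly factors, proteins that build the complex and are not part of it, had a median difference of -0.02, and 0 passed the test. Both MaR1 values lay below both Veh values for 4 of them, where 36.8% of all genes tested did so, and above for 0, where 32.7% did. Ndufaf3 read 0.57 and 0.61 on the MaR1 arrays and 0.90 and 0.79 on the Veh arrays, a difference of -0.25 ± 0.07 (adjusted p = 0.0609 by limma). Ndufaf7, a methyltransferase, read 0.58 and 0.66 on the MaR1 arrays and 0.84 and 0.86 on the Veh arrays (-0.23 ± 0.06, adjusted p = 0.0624 by limma). The second Ndufaf7 probe read -0.88 and -0.88 on the MaR1 arrays and -0.60 and -0.57 on the Veh arrays, and it passed the test when every probe was fitted on its own (-0.30 ± 0.06, adjusted p = 0.0291 by limma). Ndufaf7 also passed with the mean of its probes and in the authors' value table. The other 6 differences ran from Ndufaf4 (-0.16 ± 0.06) to Ndufaf1 (0.06 ± 0.07).

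Complex III, which passes electrons from ubiquinol to cytochrome c, had 8 genes with differences above zero and a median of 0.09, which was -0.0304 after quantile normalization, and 0 passed the test. Uqcrfs1, the Rieske iron-sulfur protein, read 3.98 and 4.06 on the MaR1 arrays and 3.87 and 3.86 on the Veh arrays, a difference of 0.16 ± 0.06 (adjusted p = 0.133 by limma). Uqcr10, a small membrane subunit, had the smallest p of the complex, with 5.62 and 5.69 on the MaR1 arrays and 5.51 and 5.48 on the Veh arrays (0.17 ± 0.06, adjusted p = 0.116 by limma). The core proteins differed less. Uqcrc1 read 4.20 and 4.19 on the MaR1 arrays and 4.18 and 4.12 on the Veh arrays (0.04 ± 0.06), and Uqcrc2 read 4.39 and 4.38 on the MaR1 arrays and 4.33 and 4.31 on the Veh arrays (0.07 ± 0.05). The 2 probes of Uqcrb differed in sign, with 0.11 ± 0.07 for the brighter and -0.01 ± 0.08 for the other.

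Complex IV, cytochrome c oxidase, is the site where oxygen is reduced, and several of its nuclear subunits exist as isoforms with different tissue distributions. Its 13 genes, with Ndufa4 counted here because its protein is found in complex IV, had a median difference of 0.11, which was 0.0318 after quantile normalization, and 0 passed. Cox5a, a subunit present in all tissues, read 7.20 and 7.27 on the MaR1 arrays and 7.10 and 7.01 on the Veh arrays (0.18 ± 0.07, adjusted p = 0.127 by limma). Ndufa4 read 4.07 and 4.19 on the MaR1 arrays and 4.01 and 3.97 on the Veh arrays (0.14 ± 0.07). In both genes the 2 MaR1 values lay above the 2 Veh values. Cox7b, a small subunit encoded on the X chromosome, read 4.01 and 4.11 on the MaR1 arrays and 3.94 and 3.88 on the Veh arrays, also without overlap (0.15 ± 0.07). Cox6c overlapped, with 4.96 and 5.12 on the MaR1 arrays and 5.00 and 4.86 on the Veh arrays (0.11 ± 0.09).

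Among the isoforms, the broadly expressed and the heart and muscle forms were both measured. Cox6a1, the broadly expressed form, read 7.54 and 7.67 on the MaR1 arrays and 7.55 and 7.49 on the Veh arrays (0.08 ± 0.07). Cox6a2, the heart and muscle form, read 2.89 and 2.94 on the MaR1 arrays and 2.96 and 3.08 on the Veh arrays, with both MaR1 values below both Veh values (-0.11 ± 0.07, adjusted p = 0.312 by limma). Cox7a2, broadly expressed, read 5.28 and 5.34 on the MaR1 arrays and 5.17 and 5.09 on the Veh arrays (0.18 ± 0.06, adjusted p = 0.114 by limma). Cox7a1, the heart and muscle form, read -1.42 and -1.29 on the MaR1 arrays and -1.40 and -1.34 on the Veh arrays, with overlapping groups (0.01 ± 0.07). Cox7a2l, a related protein that takes part in joining complexes III and IV, read 5.89 and 5.97 on the MaR1 arrays and 5.90 and 5.90 on the Veh arrays (0.03 ± 0.06).

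Cox6b1, the broadly expressed form of its subunit, had overlapping groups, with 2.20 and 2.24 on the MaR1 arrays and 2.30 and 2.14 on the Veh arrays, and a 95% interval of the difference from -0.21 to 0.21. Cox6b2, the testis form, had the widest interval of the 86 genes, with -2.81 and -3.19 on the MaR1 arrays, -2.98 and -3.25 on the Veh arrays and 95% limits of the difference from -0.34 to 0.57. Cox8a, the broadly expressed form of its subunit, read 6.34 and 6.45 on the MaR1 arrays and 6.36 and 6.32 on the Veh arrays (0.06 ± 0.07), while the heart and muscle form Cox8b and the testis form Cox8c were not well above background on any array. Cox7b2 and Ndufa4l2 were not well above background either. The 2 probes of Cox7c differed in sign, with 0.11 ± 0.07 for the brighter and -0.01 ± 0.11 for the other.

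Complex V, ATP synthase, had 17 genes, all with differences above zero, a median of 0.11 and 0 calls. The median was -0.0451 after quantile normalization. The 5 subunits of the catalytic F1 part had a median difference of 0.09. Atp5a1, the alpha subunit, read 5.72 and 5.71 on the MaR1 arrays and 5.69 and 5.62 on the Veh arrays (0.06 ± 0.06). Atp5b, the catalytic beta subunit, read 6.65 and 6.61 on the MaR1 arrays and 6.58 and 6.51 on the Veh arrays (0.09 ± 0.06). Its groups did not overlap, and its 2 dimmer probes differed by 0.25 ± 0.05 and 0.24 ± 0.07, the first of which passed when every probe was fitted on its own (adjusted p = 0.0427 by limma). The gamma subunit Atp5c1, which forms the rotating shaft, read 5.97 and 6.06 on the MaR1 arrays and 5.95 and 5.86 on the Veh arrays (0.11 ± 0.07). The delta subunit Atp5d overlapped, with 3.69 and 3.64 on the MaR1 arrays and 3.71 and 3.57 on the Veh arrays (0.03 ± 0.07). Atp5o, which links the F1 part to the stalk, read 5.69 and 5.71 on the MaR1 arrays and 5.59 and 5.53 on the Veh arrays, without overlap (0.14 ± 0.06, adjusted p = 0.160 by limma). The 3 probes of Atp5h, a stalk subunit, gave 0.12 ± 0.07, 0.01 ± 0.06 and -0.03 ± 0.07, and 0 of them passed.

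The c subunit, which forms the rotating ring in the membrane, is encoded by 3 genes whose mature proteins are the same. Atp5g1 read 4.63 and 4.64 on the MaR1 arrays and 4.57 and 4.45 on the Veh arrays (0.13 ± 0.07), and its other probe differed by 0.20 ± 0.06. Atp5g2 read 6.26 and 6.30 on the MaR1 arrays and 6.08 and 6.12 on the Veh arrays, the smallest p of complex V (0.18 ± 0.06, adjusted p = 0.0913 by limma). Atp5g3 overlapped, with 5.70 and 5.75 on the MaR1 arrays and 5.71 and 5.68 on the Veh arrays (0.03 ± 0.06). By the brightest probe of each gene, Atp5md, a small membrane subunit, had the largest difference of the complex, 0.21 ± 0.08 (adjusted p = 0.145 by limma). It read 4.80 and 4.90 on the MaR1 arrays and 4.72 and 4.56 on the Veh arrays. Its other probe differed by 0.29 ± 0.09 (adjusted p = 0.0825 by limma over probes).

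For genes with annotated pseudogenes, such as Atp5k, Uqcrh, Cox7c and Ndufa12, whether the probes also read the copies was not tested. The RefSeq table held 19 pseudogenes whose symbols match the naming rule.

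Promoter windows were available for 73 of the 86 genes. A gene was counted when at least 1 of its windows held a match. The NRF1-type letters (GCGCANGCG) are bound by a factor known for controlling respiratory chain genes. They were found in 22 of the 73 genes (30.1%), beside 13.6% of all genes tested that had a window. A YY1-type match (AAGATGGCG) was found in 8 genes (11%), beside 3.18%, and a GABP/ETS-type match (CCGGAAGT) in 5 (6.85%), beside 8.21%. At least 1 of these 3 motifs was found in 32 genes (43.8%), beside 22.7%. An ERR-type match (TCAAGGTCA) was found in 2 (2.74%), beside 0.347%. By complex, NRF1-type matches were found in 7 of 15 genes of complex V, 8 of 32 of complex I and 1 of 11 of complex IV. Both strands were searched, and a match describes letters only.

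Among 25 further electron carriers, subunits and membrane carriers named by other rules, 3 genes rose and 2 fell. Over all genes tested 11.2% rose and 12.7% fell, and the counts of this and the following lists are to be read against those shares. Cycs, which encodes cytochrome c, read 6.33 and 6.44 on the MaR1 arrays and 6.00 and 5.95 on the Veh arrays, a difference of 0.41 ± 0.07 (adjusted p = 0.0217 by limma). Slc25a5, an ADP/ATP carrier, rose by 0.25 ± 0.06, and Tmem126b, a complex I assembly protein, by 0.29 ± 0.07. Ucp2, an uncoupling protein of macrophages, read 1.90 and 1.83 on the MaR1 arrays and 2.48 and 2.35 on the Veh arrays (-0.55 ± 0.07, adjusted p = 0.0151 by limma). Ecsit, which takes part in complex I assembly and in Toll-like receptor signalling, fell by 0.24 on the log2 scale. The complex III subunit Cyc1 (0.08 ± 0.06) and the complex IV subunits Cox4i1 (0.03 ± 0.06) and Cox4i2 (0.01 ± 0.07) did not pass the test.

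Of 34 assembly factors of complexes II to V, 2 rose and 0 fell, with a median difference of -0.01. Sco1, a copper chaperone of complex IV, read 0.92 and 1.18 on the MaR1 arrays and 0.31 and 0.39 on the Veh arrays (0.70 ± 0.11, adjusted p = 0.0194 by limma), and Higd1a, an inner membrane protein, rose by 0.26 ± 0.06. Of 13 genes of coenzyme Q synthesis, 1 rose and 2 fell, with a median of -0.11. Pdss1, which makes the isoprenoid tail, rose by 0.41 ± 0.06, and Coq10a fell by 0.28 on the log2 scale. Coq8a was not well above background on the MaR1 arrays. As scaled here, its Veh mean was 2.05-fold a bound set for those arrays. The bound was the lowest signal well above background, or the probe's own where higher. Coq8a passed the filter through the Veh arrays alone, so neither its call nor this bound is support for a difference. Its fitted difference was -1.08 as reported, -0.97 without Veh array 2 and -0.31 after normexp correction with quantile normalization.

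Of 21 genes of the tricarboxylic acid cycle and its entry points, 1 rose and 0 fell, the one being Idh3a, a subunit of the NAD-dependent isocitrate dehydrogenase (0.26 ± 0.06, adjusted p = 0.0488 by limma). That call ended whichever array was left out, with no filter on dim probes and with the replicate block. The median was 0.02. Of 78 mitochondrial ribosomal protein genes, 5 rose and 0 fell, with a median of 0.05, among them Mrpl14 (0.43 ± 0.06), Mrpl16 (0.37 ± 0.06), Mrpl13 (0.33 ± 0.06) and Mrps25 (0.33 ± 0.06). Of 25 mitochondrial import genes, 1 rose (Timm22, 0.24 ± 0.05) and 0 fell, with a median of 0.05. Of 18 regulators of mitochondrial biogenesis, 0 rose and 0 fell, with 1 at an unadjusted p under 0.05; Nrf1 differed by 0.23 ± 0.09 and Tfam by -0.03 ± 0.05, and Ppargc1a was not kept by the filter.

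For comparison, 8 of 95 genes named as cytosolic ribosomal proteins rose and 2 fell, with a median of 0.13 that was 0.0192 after quantile normalization. The name pattern also takes in kinases. The smallest p-values among those that rose belonged to the kinase gene Rps6ka2 (0.53 ± 0.06) and Rps23rg1 (0.42 ± 0.06), followed by the large-subunit proteins Rpl23a (0.31 ± 0.05) and Rpl10a (0.31 ± 0.06), and those that fell were the kinase genes Rps6ka5 (-0.32 ± 0.05) and Rps6ka1 (-0.33 ± 0.07). Besides Coq8a, 26 genes were called in these lists of other pathways, and 0 of those calls were kept whichever array was left out. The calls of 8 genes (Higd1a, Slc25a5, Idh3a, Rpl23a, Rpl10a, Rps2, Rpl6 and Rpl29) also ended in the authors' value table and after quantile normalization. Those of Timm22, Tmem126b, Mrpl49 and Rps6kc1 ended after quantile normalization but not in that table. Of the 27 calls, 24 ended when dim probes were kept and 20 ended with the replicate block.

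The arrays had 54.4% to 55.6% of probes well above background and 0 saturated spots, and their 75th percentiles were 946 and 847 on the MaR1 arrays and 961 and 988 on the Veh arrays. All 12 Kupffer cell and macrophage markers were well above background on the 4 arrays, and 2 of them rose (Cd163 and Csf1r) and 1 fell (Adgre1). Other cell types' markers also moved: 6 of 8 dendritic cell genes rose and 0 fell (summed signal relative to the 75th percentile of 73.9 and 74.5 on the MaR1 arrays and 50.6 and 47.2 on the Veh arrays), 4 of 9 endothelial and 3 of 8 B cell genes rose and 0 fell, and 2 of 9 T and NK cell genes rose and 4 fell. At an unadjusted p under 0.05 by limma, 2 of the dendritic cell genes and 2 of the endothelial genes were lower, so these lists were split. Of the hepatocyte genes 1 of 9 fell. Their summed signals were 20.0 and 19.5 on the MaR1 arrays and 24.6 and 23.1 on the Veh arrays. Of the stellate cell genes 3 of 8 fell. All 9 hepatocyte and all 8 stellate cell differences were below zero. In each of these lists 4 genes were lower at an unadjusted p under 0.05 by limma, beside 40.7% of all genes in either direction. Of 5 cholangiocyte genes 1 rose, and of 7 neutrophil genes 0 rose and 0 fell, with 1 at an unadjusted p under 0.05. The defining genes Cps1, Des, Lrat, Xcr1 and Ngp were not kept by the filter. The part of these cells in the values above was not tested.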

How the data were processed

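4 RNA samples of cultured Kupffer cells were measured on one-colour arrays, 2 with MaR1 and 2 with Veh, grouped by the treatment label. Per the file headers and, for the version, the submitters' processing notes, the deposited intensity values come from Agilent Feature Extraction 11.0.1.1, which subtracts background and removes spatial trends within an array. The value table that the authors deposited holds log2 values. Set against log2 of the processed signal of its own array, each column gave r = 1.00, the column medians were 9.07, and the sorted columns differed by at most 0.00217. Its normalization is not given in the sources used here, and it was used to recompute results.

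For each array, log2 of the processed signal was taken relative to the 75th percentile of its non-control spots. Control and outlier-marked spots were left out (among member probes, 2 spots on Veh array 1) and spots of a probe averaged. Probes were named through the unversioned RefSeq accession (GRCm38.p6, names only): 32994 of 56605 probes had 1 symbol. Probes had to be well above background on both MaR1 or both Veh arrays (31128 were), and the brightest such probe stood for its gene (24067 genes, 14500 of them with a symbol). The test was limma 3.58.1 (lmFit, then eBayes) under R 4.3.3, two-sided, with p-values adjusted by Benjamini-Hochberg across all genes and a threshold of 0.05; the prior SD was 0.0738 with 2.27 degrees of freedom. The code was tested on simulated data. The data.table package (version 1.17.8) read the files, and Python 3.11.15 with matplotlib 3.10.9 made the figures. The number of arrays limits the precision.

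Members and gene lists were chosen with earlier results of these data known. Named genes were called members (up to 6 per complex and direction), the catalytic, core and isoform genes, genes below the filter, genes whose probes disagree and up to 4 called genes per direction in each other pathway list; further genes were named after their values were seen. The values of 1 member are not reported here by name. Alternatives were other scalings, normexp background correction (offset 50, on the median spot signal), the authors' table, other filters, other handling of probes, a variance trend, a replicate block and leaving out each array.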

Additional observations from a re-analysis of the deposited data

How the results depend on the processing

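The differences between MaR1 and Veh stayed small under every alternative run, the largest being 0.413 for Sdhb in absolute log2 value (quantile normalization), but calls and the sign of medians depended on the setting. After quantile normalization the median log2 difference was -0.036 over the 86 genes, -0.0414 for complex I, -0.0469 for II, -0.0304 for III, 0.0318 for IV and -0.0451 for V. After normexp correction with quantile normalization these medians were -0.0331, -0.0424, -0.043, -0.0242, 0.0207 and -0.0401. There 1 member was higher (Sdhc) and 4 were lower (Ndufa6, Ndufaf3, Ndufaf7 and Sdhb), among 3217 higher and 4341 lower genes (31.4% of all genes). In the authors' value table the medians were -0.0137, -0.027, -0.0266, -0.0153, 0.035 and -0.00723. There 2 members were lower (Ndufaf7 and Sdhb), among 2538 higher and 3054 lower genes (24.4% of the 22906 in it). Without a filter on dim probes 0 members passed, and 1087 higher and 972 lower genes did (4.51% of all genes). There were then more genes to adjust over (45616). With the filter on all 4 arrays 1 member was higher (Ndufs3) and 1 lower (Sdhb), among 2764 higher and 3301 lower genes (26.5%). With every probe fitted on its own 1 member probe was higher and 2 were lower, among 3602 higher and 3868 lower probes (24.0%). With a variance trend 15 members were higher and 3 lower, among 4524 higher and 4672 lower genes (38.2% of all genes). The cause of this change was not tested.

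The labels give both groups replicates 1 and 2, but the deviations of equally numbered arrays did not correlate (r = -0.0292 over 24067 genes). Noise between 2 arrays a group can hide a pairing, so this value does not settle whether the numbers pair the arrays. With the replicate block 0 members passed, and 1766 higher and 1926 lower genes did (15.3% of all genes). Sdhb then had an adjusted p of 0.0845 by limma.

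Leaving out 1 array, with the lone array of a group assumed to vary like the other group, gave 0 members called in either direction, 1011 to 1336 higher and 916 to 1489 lower genes. Medians were then between 0.0375 and 0.0972 over the 86 genes, 0.0209 and 0.0748 for complex I, 0.0342 and 0.0972 for complex II, 0.051 and 0.145 for complex III, 0.0289 and 0.159 for complex IV, 0.0546 and 0.135 for complex V, and -0.0507 and 0.00298 for the assembly factors. With 2 arrays a group, small differences could not be resolved.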
